A study of Mus musculus with 4 samples.

Results

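The genes described here are 10 oncofetal growth genes of the LIN28 and insulin-like growth factor (IGF) axis, *Lin28a*, *Lin28b*, *Hmga2*, *Igf2bp1*, *Igf2bp2*, *Igf2bp3*, *Igf1*, *Igf2*, *H19* and *Igf1r*. They were chosen by name, because repression of *Lin28b*, of genes linked to let-7 and of IGF signaling by the deacetylase SIRT6 is known from other tissues. Their values in these libraries were not used for the choice, but earlier results of these data were known when it was made. All 10 symbols were among the 23337 genes of the count table. The study asked what the loss of *Sirt6* does to medullary thymic epithelial cells (mTECs), the thymic cells that display tissue-restricted self antigens to developing T cells. mTECs (CD45- EpCAM+ UEA-1+ Ly51-) were sorted from the thymus of 4-week-old C57BL/6 mice, and total RNA was sequenced in 2 WT and 2 *Sirt6* cKO libraries. The WT mice were littermates or age-matched animals without *Foxn1*-Cre, and the cKO mice, whose genotype the labels give as Sirt6-/-, were *Foxn1*-Cre *Sirt6* loxp/loxp. Within the thymus *Foxn1* drives Cre in epithelial cells, so other cells caught in the sort would keep *Sirt6*. No source used here ties a library to 1 animal, and the p-values measure the spread between these libraries.

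LIN28A and LIN28B are RNA-binding proteins of embryonic and fetal cells that bind the loop of let-7 precursors and block their maturation, and LIN28-bound precursors are marked for decay by terminal uridylyl transferases. Mature let-7 in turn represses *Lin28a*, *Lin28b*, *Hmga2* and the *Igf2bp* genes through sites in their 3′ untranslated regions (3′ UTRs), so that LIN28 and let-7 oppose each other. IGF2BP proteins bind and stabilize many mRNAs, *Igf2* mRNA among them, and the ligands IGF1 and IGF2 both signal through the receptor encoded by *Igf1r*.

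The let-7 family is the known link between the LIN28 genes and several, not all, of the other genes. The 12 mouse loci of the let-7 family in RefSeq (GRCm38.p6) give 9 mature 5p sequences with 1 shared seed, bases 2 to 8, which is set in capitals in 3 members of the family.
mmu-let-7a-5p: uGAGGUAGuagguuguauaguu
mmu-let-7g-5p: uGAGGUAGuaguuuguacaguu
mmu-miR-98-5p: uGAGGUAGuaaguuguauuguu
The GGAG tetranucleotide that LIN28 proteins are known to bind lay between the 5p and 3p arms at 8 of the 11 loci with both arms annotated. It is capitalized in the precursor of let-7g (*Mirlet7g*, chr9:106178840-106178927, plus strand, GRCm38).
Mirlet7g hairpin: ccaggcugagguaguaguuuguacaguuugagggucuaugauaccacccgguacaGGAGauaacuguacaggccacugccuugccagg

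The reverse complement of the seed, CTACCTC, was searched on the sense strand of the longest annotated 3′ UTR of each gene (GENCODE M21, GRCm38). It occurred in 9.18% of the 3′ UTRs of 20659 protein-coding genes, whose median length was 989 bases. *Lin28b*, *Igf2bp1* and *Hmga2* held 4 matches each, in 3′ UTRs of 4445, 6337 and 3014 bases. Of 3′ UTRs within 0.8 to 1.25 times those lengths, 24.3%, 34.3% and 16.0% held at least 1, and 0.221%, 0.166% and 0.082% held 4 or more. *Lin28a* and *Igf1r* held 2 matches each, and *Igf2bp2*, *Igf2bp3* and *Igf1* 1 each. As many or more occurred in 2.02%, 8.70%, 12.0%, 13.3% and 33.6% of 3′ UTRs of like length, in that order. *Igf2* held 0, while *H19* is not a coding RNA. These counts describe letters in a window, and since members were picked for known let-7 links they are not independent evidence of such a link. The 23-base windows below, all from genes on the minus strand and printed 5′ to 3′ in the sense of the mRNA, show the matches of the 3 genes with the most, namely the match nearest the stop codon in *Lin28b* and *Hmga2* and all 4 in *Igf2bp1*, with the match in capitals.
Lin28b, chr10:45381022-45381044: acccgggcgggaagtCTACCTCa
Hmga2, chr10:120364224-120364246: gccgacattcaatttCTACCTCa
Igf2bp1, chr11:95961778-95961800: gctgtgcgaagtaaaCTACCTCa
Igf2bp1, chr11:95959357-95959379: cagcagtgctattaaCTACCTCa
Igf2bp1, chr11:95958763-95958785: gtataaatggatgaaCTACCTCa
Igf2bp1, chr11:95958140-95958162: acttttggttttaatCTACCTCt
The *Lin28b* and *Hmga2* matches start at bases 36 and 58 of the 3′ UTR, and an A follows the match in 5 of all 12 matches of these 3 genes.

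The libraries held 61102704 to 65907745 counts over genes. *Sirt6* itself had 622 and 755 counts in the WT libraries against 882 and 835 in *Sirt6* cKO, a log2 fold change of 0.37 (SE 0.32, edgeR quasi-likelihood test, Benjamini-Hochberg adjusted p = 0.800), so a lower level was not seen in the libraries labelled *Sirt6* cKO. The counts cover the whole gene, including exons outside the floxed part, and every direction given here rests on the labels. The paper states that *Sirt6* was inactivated, citing a western blot of cultured thymic epithelial cells and quantitative PCR of sorted medullary and cortical ones. Summed markers of mTECs were 11440 and 10967 CPM (counts scaled to library size) in WT and 12475 and 12848 in *Sirt6* cKO, with 8 of the 10 above 0 in log2 fold change, *Ctss* and *Fezf2* below 0, and *Epcam*, *Aire* and *Cd80* higher at an unadjusted p of 0.05 in edgeR. Macrophage markers, which a CD45- gate should remove, summed to 5590 and 3255 CPM in WT and 2078 and 2251 in *Sirt6* cKO. All 8 were below 0 in log2 fold change, 5 of them passed an unadjusted p of 0.05 and none was at 0 counts. Over all genes tested, edgeR called 5.27% higher and 3.32% lower at that threshold. The gene for CD45 itself, *Ptprc*, was not lower on average, at 362 and 264 CPM in WT against 433 and 321 in *Sirt6* cKO. The groups overlapped for *Ptprc*, which had a log2 fold change of 0.27 (SE 0.24, edgeR adjusted p = 0.815). Summed thymocyte markers were 483 to 956 CPM, cTEC markers 402 to 674, fibroblast markers 639 to 742, B cell markers 57.4 to 119 and endothelial markers 67.3 to 99.0, each with overlapping groups. Within these lists the cTEC markers *Ly75* (log2 fold change 1.14) and *Dll4* (1.08) rose and the fibroblast marker *Lum* (-1.14) fell at an unadjusted p of 0.05 in edgeR. After adjustment DESeq2 called *Lum* and the macrophage markers *C1qa*, *C1qb*, *Cd68* and *Lyz2* lower and the mTEC marker *Cd80* higher. In sorted bulk RNA, fewer cells of a type and less RNA per cell cannot be told apart.

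Compared per length, in TPM (transcript abundance scaled for length and library), the 10 genes spanned a wide range of levels. *Igf1* had the highest mean over the 4 libraries at 65.6 TPM, followed by *Igf2bp3* at 18.9, *Igf1r* at 7.13, *Igf2bp2* at 5.82, *H19* at 3.66, *Igf2bp1* at 3.53, *Igf2* at 2.04, *Lin28a* at 0.694, *Lin28b* at 0.550 and *Hmga2* at 0.0903. *Igf1* stood at percentile 87.3 of all genes in the table and *Igf2bp3* at percentile 69.5, while *Lin28b* stood at 24.6. Only the steps from *Igf1* to *Igf2bp3* and from *Igf2bp3* to *Igf1r* were larger than the spread over libraries, and the ranges of the other 7 neighbouring pairs overlapped. In the order of those pairs, *Lin28a* and *Lin28b* were ranked opposite to their means in 3 of 4 libraries, *Lin28a* being the higher of the pair in WT 2 alone.

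**Figure D1:**
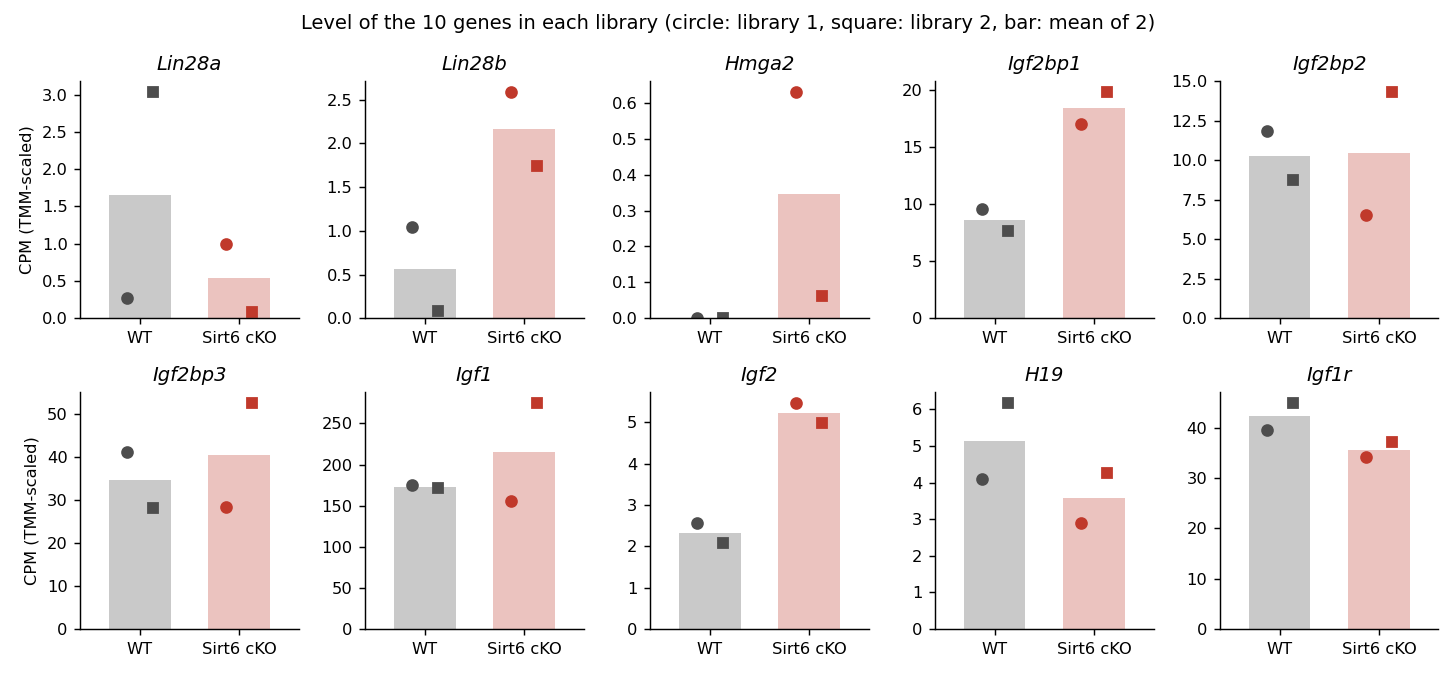
Level of each of the 10 genes in the 4 libraries, on a linear axis of TMM-scaled CPM that starts at 0 and differs between panels. Circles are library 1, squares library 2 and bars the mean of 2. *Lin28b*, *Igf2* and *Igf2bp1* lie higher in both *Sirt6* cKO libraries than in either WT library and *Igf1r* lower, and *Hmga2* has counts in the *Sirt6* cKO libraries alone.

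Among the 10 genes, *Igf2bp1* was the 1 that passed an unadjusted p of 0.05 and rose in *Sirt6* cKO, and 0 passed after adjustment over the 18547 genes tested in edgeR or over the 19368 genes that DESeq2 adjusted. *Lin28b*, *Igf2*, *Hmga2*, *Igf1*, *Igf2bp3* and, by a small margin, *Igf2bp2* had higher mean CPM in *Sirt6* cKO without passing, and *Lin28a*, *H19* and *Igf1r* lower ones. *Hmga2* was too low for the filter, so 9 genes were tested, and 1 of 9 is 11.1%, against 8.58% of all genes tested (5.27% higher and 3.32% lower). The CPM of the groups did not overlap in 4 of the 9, 3 higher and 1 lower in *Sirt6* cKO, where 41.9% of all genes did not overlap (21.6% higher and 20.3% lower). After adjustment edgeR called 0.00539% of all genes, 1 gene that was higher in *Sirt6* cKO. DESeq2 likewise called *Igf2bp1* alone among the 10 at an unadjusted p, where it called 10.2% of all genes (5.8% higher and 4.38% lower), and 1.83% of all genes after adjustment (1.03% higher and 0.795% lower). The shares of members were near the background, so they do not set these genes apart from the rest. The log2 fold change was above 0 for 6 genes and below 0 for 3, with a median of 0.23 against -0.0047 over all genes tested. With upper quartile scaling or library size alone the median of all genes moved to -0.0861 or -0.0932.

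*Lin28b* (chr10:45376620-45486395, minus strand), the paralog best known from fetal tissue and tumors, had 68 and 5 counts in the WT libraries against 156 and 112 in *Sirt6* cKO. Per length this was 0.416 and 0.0322 TPM in WT and 1.04 and 0.709 TPM in *Sirt6* cKO. Both *Sirt6* cKO libraries were above both WT libraries, and the WT libraries differed from each other by 13.2-fold against 1.48-fold within *Sirt6* cKO. Mean CPM was 0.559 ± 0.679 (SD, n = 2) in WT and 2.17 ± 0.593 in *Sirt6* cKO. The corresponding log2 fold change was 1.95 (SE 1.38, 95% interval -1.51 to 5.41), which did not pass in edgeR (unadjusted p = 0.212, adjusted p = 0.747). Its size rested on WT 1 and WT 2, being 4.72 without WT 1, where the unadjusted p was 0.0175, and 1.06 without WT 2.

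*Lin28a* (chr4:134003330-134018841, minus strand), the paralog of embryonic stem cells, had 18 and 193 counts in the WT libraries against 60 and 5 in *Sirt6* cKO. WT 2 was the highest library and *Sirt6* cKO 2 the lowest, and the groups overlapped. Libraries of 1 group differed by 11.0-fold in WT and 12.8-fold in *Sirt6* cKO, more than the group means of 1.65 ± 1.95 and 0.536 ± 0.648 CPM (SD, n = 2). Its log2 fold change of -1.62 (SE 1.72, edgeR adjusted p = 0.850) ranged from -4.37 without *Sirt6* cKO 1 to 0.96 without WT 2, where its direction turned. WT 2 held the most *Lin28a* and the least *Lin28b* of the 4 libraries.

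*Hmga2* (chr10:120361275-120476469, minus strand), a fetal chromatin protein and a classic let-7 target, had 0 counts in both WT libraries, 38 in *Sirt6* cKO 1 and 4 in *Sirt6* cKO 2. It was listed at 0.328 and 0.0326 TPM in the *Sirt6* cKO libraries. With the 3 counts that a count of 0 allows set as the level of each WT library, the *Sirt6* cKO mean was 7.44 times that level. Nearly all of this came from *Sirt6* cKO 1, as the ratio was 1.34 without that library and 13.5 without *Sirt6* cKO 2. When low genes were kept, the unadjusted p was 0.0818 in edgeR and 0.0710 in DESeq2. These ratios allow for counting error in the WT libraries only. The *Sirt6* cKO counts were taken as exact, and the spread between libraries is not included. The pseudogene listed as *Hmga2-ps1* had 136 to 284 counts, with overlapping groups.

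*Igf2bp1* (chr11:95957163-96005940, minus strand) encodes the member of the family that is largely silent in adult tissue. It had 628 and 486 counts in the WT libraries against 1028 and 1271 in *Sirt6* cKO, or 2.48, 2.03, 4.42 and 5.18 TPM in the same order. Both *Sirt6* cKO libraries exceeded both WT libraries, and the libraries of 1 group differed by 1.26-fold in WT and 1.16-fold in *Sirt6* cKO. Mean CPM rose from 8.62 ± 1.38 (SD, n = 2) to 18.4 ± 1.97, a log2 fold change of 1.10 (SE 0.32, 95% interval 0.29 to 1.90). The unadjusted p was 0.0168 and the adjusted p 0.541 in edgeR, and the adjusted p ran from 0.162 to 0.999 over the alternatives. Leaving out 1 library kept the log2 fold change between 0.94 and 1.25, but the unadjusted p was then 0.0688 without WT 2 and 0.0926 without *Sirt6* cKO 2. On the TPM scale limma gave an unadjusted p of 0.0862 for log2(TPM + 1) and 0.0927 for log2(TPM + 0.1). It moved in the same direction as 8 of the 10 mTEC markers, against the other 2, *Ctss* and *Fezf2*, and against all 8 macrophage markers, and the part of either list in the result was not tested.

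*Igf2bp2* (chr16:22059009-22163299, minus strand), the family member with broad adult expression, had 775 and 557 counts in the WT libraries against 396 and 917 in *Sirt6* cKO. The *Sirt6* cKO libraries were the lowest and the highest of the 4, and the mean was 10.3 ± 2.18 CPM in WT and 10.4 ± 5.47 in *Sirt6* cKO (SD, n = 2). On the log2 scale the fold change was 0.02 (SE 0.48, 95% interval -1.19 to 1.23, edgeR adjusted p = 0.994), with a sign that turned under other scalings.

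*Igf2bp3* (chr6:49085223-49214957, minus strand), an oncofetal paralog, had 2696 and 1789 counts in the WT libraries against 1716 and 3377 in *Sirt6* cKO. As for *Igf2bp2*, *Sirt6* cKO 2 was the highest library and WT 1 the next, and the groups overlapped. The log2 fold change of 0.23 (SE 0.39, 95% interval -0.76 to 1.21, edgeR adjusted p = 0.920) became -0.32 without *Sirt6* cKO 2 and -0.02 without WT 2. Its exons share 1529 bases, 18.7% of their length, with *Malsu1* on the other strand, listed under its older symbol *2410003K15Rik* at 641 to 947 counts. Whether the counting used strand is not given in the sources used here, so reads of that stretch may have been split between these genes.

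The 3 *Igf2bp* paralogs together came to 29.6 and 21.5 TPM in WT and 22.3 and 39.8 TPM in *Sirt6* cKO, so their sum overlapped between groups. *Igf2bp3* made up most of it in every library, between 63.8% and 69.4%. The share of *Igf2bp1* was 8.38% and 9.47% in WT and 19.8% and 13.0% in *Sirt6* cKO. The shares of the groups did not overlap, with means of 8.93% ± 0.774 and 16.4% ± 4.80 (SD, n = 2), and the exact two-sided permutation p of 0.333 is the smallest that 2 against 2 allows.

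**Figure D2:**
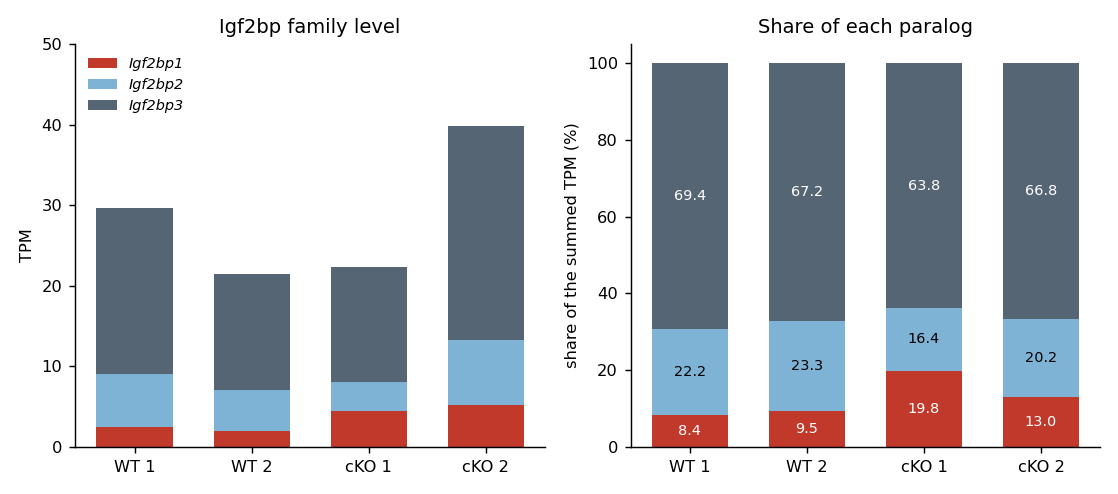
Summed TPM of the 3 *Igf2bp* paralogs in each library (left, linear axis from 0) and the share of each paralog in that sum in percent (right). The sum was largest in *Sirt6* cKO 2 at 39.8 TPM, and the red *Igf2bp1* share was 19.8% and 13.0% in *Sirt6* cKO against 8.38% and 9.47% in WT.

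The pattern of *Igf2bp1* over the 4 libraries was most like that of *Gcnt4*, *Hdac9* and *Smyd2* among the 18546 other genes tested. The root mean square difference in log2 CPM, centred on each gene's mean, was 0.0623, 0.0681 and 0.0698, against a median of 0.695 over all genes. *Gcnt4*, which encodes a glycosyltransferase, had 1434 and 1038 counts in the WT libraries against 2362 and 2639 in *Sirt6* cKO. The likeness is a description over 4 libraries.

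Of the ligands, *Igf1* (chr10:87858265-87937042, plus strand), the main postnatal growth factor of the pair, was the most abundant of the 10 genes. It had 11437 and 10876 counts in the WT libraries against 9397 and 17632 in *Sirt6* cKO, with 57.8, 59.3, 52.9 and 92.3 TPM. *Sirt6* cKO 1 was the lowest and *Sirt6* cKO 2 the highest library, while the WT libraries differed by 1.02-fold. The mean was 173 ± 2.70 CPM in WT and 215 ± 84.3 in *Sirt6* cKO (SD, n = 2), a log2 fold change of 0.32 (SE 0.30, 95% interval -0.43 to 1.06, edgeR adjusted p = 0.819). It was 0.67 without *Sirt6* cKO 1, with an unadjusted p of 0.0318, and -0.18 without *Sirt6* cKO 2. *Igf1* is also made by macrophages and fibroblasts. Summed macrophage markers were 5590 and 3255 CPM in WT and 2078 and 2251 in *Sirt6* cKO, and summed fibroblast markers 639 and 742 CPM in WT and 664 and 720 in *Sirt6* cKO. Within *Sirt6* cKO both sums were higher in library 2, as *Igf1* was at 275 against 156 CPM, while *Igf1* was 175 and 171 CPM in WT. The genes of each list did not all move that way. Of the fibroblast markers, *Dcn* (359 to 447 CPM), *Col1a1*, *Pdgfrb* and *Fbn1* were higher in library 2. *Col1a2*, *Col3a1* (102 to 69.7 CPM), *Lum* and *Pdgfra* were lower. Most of the macrophage sum was *Lyz2*, at 1778 and 1906 CPM in *Sirt6* cKO, and *C1qa* and *Mertk* were lower in library 2. Summed mTEC and endothelial markers were also higher in *Sirt6* cKO 2 than in *Sirt6* cKO 1, and cTEC, thymocyte and B cell markers lower. The part of any of these cells in the *Igf1* level was not tested.

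**Figure D3:**
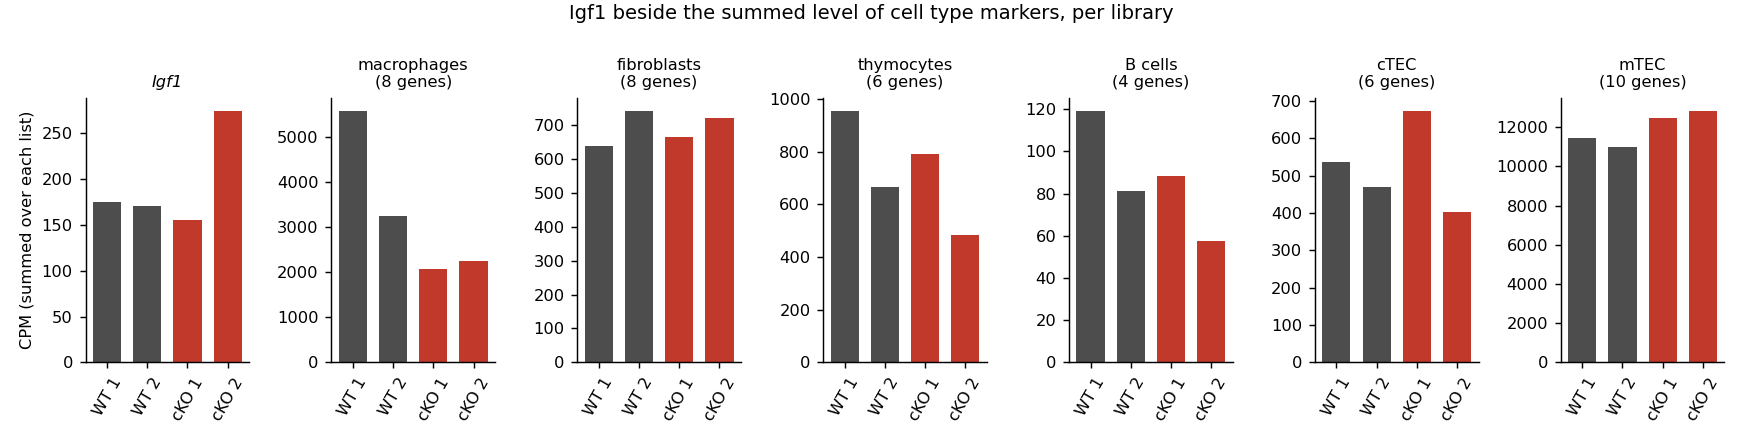
*Igf1* in CPM beside the summed CPM of marker lists for 6 cell types in each library, on linear axes from 0 that differ between panels (grey, WT; red, *Sirt6* cKO). *Igf1* is highest in *Sirt6* cKO 2 and lowest in *Sirt6* cKO 1, and macrophage markers are highest in WT 1 at 5590 CPM and lowest in *Sirt6* cKO 1 at 2078 CPM.

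*Igf2* (chr7:142650766-142666816, minus strand), the fetal ligand, is expressed from the paternal allele. It had 168 and 133 counts in the WT libraries against 330 and 319 in *Sirt6* cKO, or 1.38, 1.15, 2.95 and 2.70 TPM. The groups did not overlap and the libraries within a group differed by 1.23-fold in WT and 1.10-fold in *Sirt6* cKO. Mean CPM was 2.33 ± 0.337 and 5.22 ± 0.349 (SD, n = 2). The log2 fold change was 1.16 (SE 0.52, 95% interval -0.15 to 2.47), close to that of *Igf2bp1*, but it did not pass in edgeR (unadjusted p = 0.0718, adjusted p = 0.617). It stayed at 1.02 or more when 1 library was left out and passed in 0 of 12 alternatives. *Igf2* exons share 3596 bases, 62.8% of their length, with the protein-coding gene *Gm49394* on the same strand, so the count may be divided between them. The antisense gene *Igf2os*, listed as *Igf2as* and overlapping *Igf2* exons by 98 bases, had 0 counts in both WT libraries and 38 and 10 in *Sirt6* cKO. It was looked up for this overlap after its values were seen.

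*H19* (chr7:142575529-142578143, minus strand), the noncoding RNA of the maternal allele that shares an imprinting control region with *Igf2*, had 269 and 393 counts in the WT libraries against 174 and 274 in *Sirt6* cKO. The groups overlapped by a narrow margin, at 4.11 CPM in WT 1 and 4.27 in *Sirt6* cKO 2. This was a log2 fold change of -0.52 (SE 0.53, 95% interval -1.85 to 0.80, edgeR adjusted p = 0.841). In TPM, *Igf2* over *H19* was 0.404 and 0.218 in WT and 1.23 and 0.754 in *Sirt6* cKO. The ratios of the groups did not overlap (exact two-sided permutation p = 0.333, the smallest that 2 against 2 allows), and *Igf2* exceeded *H19* in *Sirt6* cKO 1 alone. *Igf1* was the more abundant ligand in all libraries, 41.9 and 51.7 times *Igf2* in WT and 18.0 and 34.2 times in *Sirt6* cKO on the TPM scale.

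*Igf1r* (chr7:67952827-68233668, plus strand), the receptor tyrosine kinase for both ligands, had 2593 and 2856 counts in the WT libraries against 2058 and 2385 in *Sirt6* cKO. Both *Sirt6* cKO libraries lay below both WT libraries, with means of 42.2 ± 3.72 and 35.6 ± 2.18 CPM (SD, n = 2). The log2 fold change of -0.25 (SE 0.24, 95% interval -0.84 to 0.35) did not pass (edgeR adjusted p = 0.828) and stayed between -0.36 and -0.15 when 1 library was left out. In *Igf2bp2*, *Igf2bp3* and *Igf1*, by contrast, *Sirt6* cKO 2 was the highest library in CPM and in TPM, and the spread within *Sirt6* cKO exceeded the difference between the groups.

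**Figure D4:**
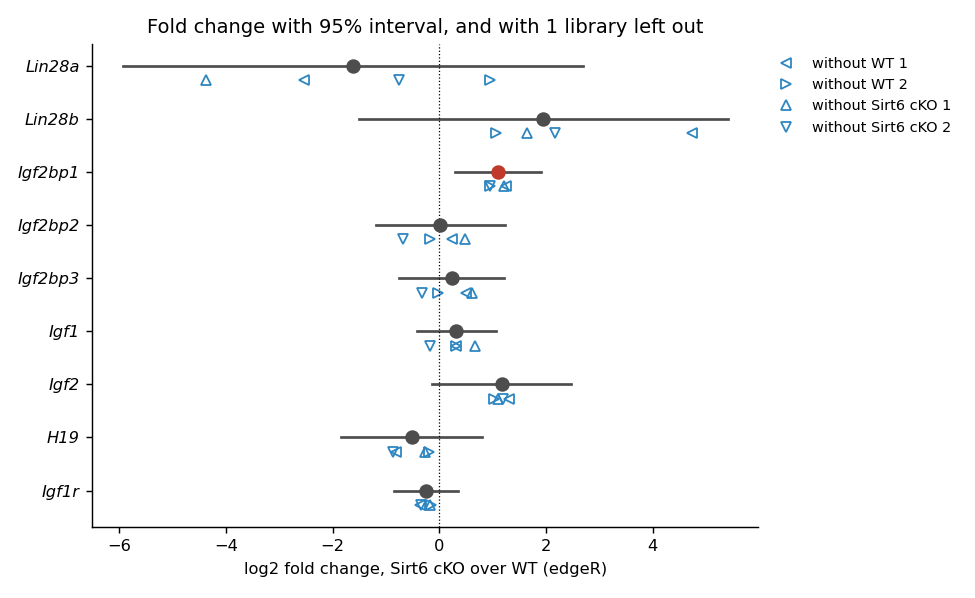
Log2 fold change of *Sirt6* cKO over WT for the 9 tested genes with its 95% interval (edgeR), and in blue the value with 1 library left out. The interval of *Igf2bp1* (red) runs from 0.29 to 1.90 and that of each other gene crosses 0, and the left-out values scatter most for *Lin28a* (-4.37 to 0.96) and *Lin28b* (1.06 to 4.72).

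Of 29 listed let-7 precursors and proteins that make or destroy them, 16 were tested, and 1 rose and 0 fell at an unadjusted p of 0.05 in edgeR. That is 6.25%, against 8.58% of all genes tested. The gene that rose was *Zcchc6*, now *Tut7*, a terminal uridylyl transferase that acts on let-7 precursors, at 251 ± 4.38 CPM in WT and 352 ± 19.4 in *Sirt6* cKO (SD, n = 2). This was a log2 fold change of 0.49 (SE 0.15, edgeR adjusted p = 0.541), and it kept an unadjusted p under 0.05 in 7 of 12 alternatives but in 0 of the 4 that left out a library. *Mbnl1*, an RNA-binding protein of splicing, had the lowest log2 fold change of the list at -0.36 (SE 0.19). The median of the list was -0.02. The 12 let-7 hairpins had summed counts of 41 and 8 in WT and 18 and 37 in *Sirt6* cKO, 5 of them at 0 in all libraries, and a library of long RNA does not measure mature let-7.

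All 37 further let-7 targets were tested. At an unadjusted p of 0.05, where edgeR called 8.58% and DESeq2 10.2% of all genes, 0 of these targets passed in either. Their median log2 fold change was 0.13, 24 being above 0 and 13 below. *Acvr1c*, an activin receptor, had the highest value at 1.72 (SE 0.81), with 184 and 49 counts in WT and 246 and 497 in *Sirt6* cKO. *Fign*, a microtubule-severing protein, had the lowest at -1.82 (SE 1.60), with 4 to 62 counts.

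In the IGF axis, 43 of 44 listed genes were tested, 6 rose and 1 fell at an unadjusted p of 0.05, which is 16.3% against 8.58% of all genes. None passed after adjustment in edgeR, where the median log2 fold change was 0.24 and that of all genes was -0.0047. DESeq2 called 7 higher and 1 lower at an unadjusted p, where it called 10.2% of all genes, and 0 after adjustment. The count of higher genes was 3 with a replicate block and between 2 and 6 when 1 library was left out, the low values coming without *Sirt6* cKO 1 or without *Sirt6* cKO 2. The median of the list was 0.0341 without *Sirt6* cKO 1 and 0.0859 without WT 1. *Igfbp2*, a binding protein that holds IGFs outside the cell, fell from 10.04 ± 2.34 CPM in WT to 3.59 ± 1.32 in *Sirt6* cKO (SD, n = 2), with 549 and 744 counts against 160 and 290. That was a log2 fold change of -1.48 (SE 0.47, edgeR adjusted p = 0.541). *Pappa2* and *Pappa*, proteases that cleave IGF-binding proteins and so free the ligand, rose by log2 fold changes of 1.36 (SE 0.44) and 0.92 (SE 0.31). *Pappa2* had 402 and 597 counts in the WT libraries against 858 and 1639 in *Sirt6* cKO, and *Pappa* 608 and 762 in WT and 1283 and 1212 in *Sirt6* cKO.

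Inside the cell, the adaptor gene *Shc1* rose by 0.62 (SE 0.22), the regulatory subunit gene *Pik3r2* of PI3 kinase by 0.91 (SE 0.28) and the kinase gene *Pdpk1*, which encodes an activator of AKT, by 0.66 (SE 0.25) in log2 fold change. *Foxo3*, a transcription factor that AKT keeps out of the nucleus, rose by 1.05 (SE 0.31), from 7.85 ± 0.386 to 16.2 ± 0.528 CPM (SD, n = 2). The adjusted p of these 4 genes and of *Pappa* and *Pappa2* lay between 0.541 and 0.571 in edgeR. *Pdpk1* lost its unadjusted p under 0.05 whichever library was left out, *Foxo3* and *Pappa* in 3 of 4 cases, and *Shc1*, *Pik3r2*, *Pappa2* and *Igfbp2* in 2 of 4. In the same libraries the macrophage markers moved with *Igfbp2* and against the 6 higher genes, and their part in these values was not tested.

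Among 25 tested imprinted growth genes of 27 listed, 0 rose and 1 fell in edgeR at an unadjusted p of 0.05. That is 4.0%, against 8.58% of all genes tested, and the median log2 fold change was -0.01. *Meg3*, a maternally expressed noncoding RNA of the *Dlk1* locus, fell, from 708 and 3426 counts in WT to 214 and 387 in *Sirt6* cKO. This gave a log2 fold change of -2.75 (SE 0.81, edgeR adjusted p = 0.541) and -1.17 without WT 2, which held most of its counts, and the unadjusted p was over 0.05 without WT 2 or without *Sirt6* cKO 1. The adjusted p of *Meg3* ran from 0.0129, in DESeq2, to 0.999 over the alternatives. *Mirg*, a noncoding RNA of the same locus, had the highest value of the list at 1.47 (SE 1.28), with 23 and 14 counts in WT and 58 and 40 in *Sirt6* cKO.

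**Figure D5:**
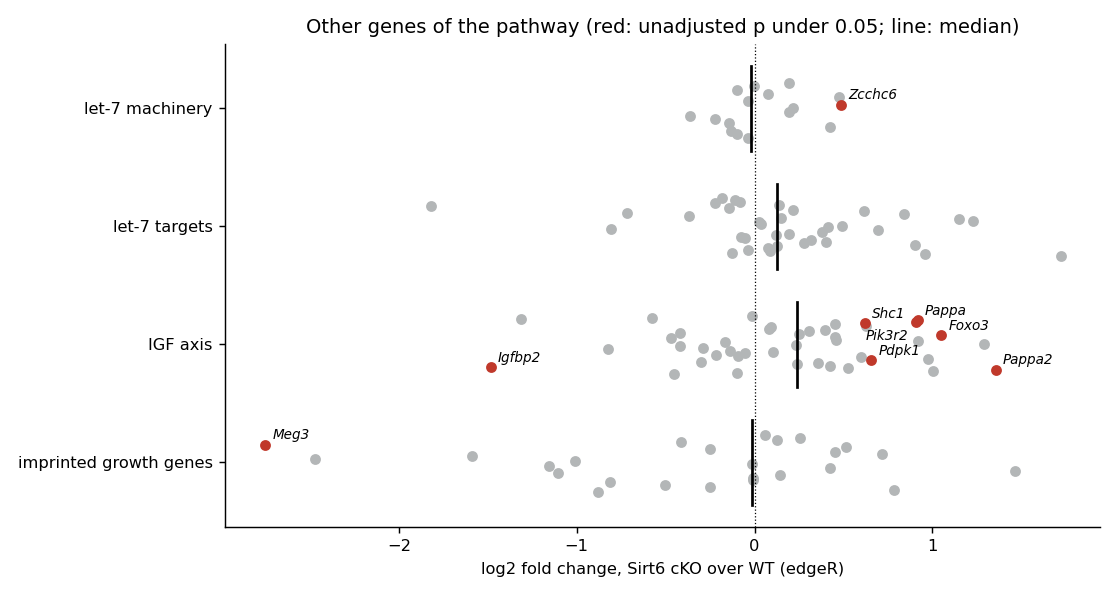
Log2 fold change of *Sirt6* cKO over WT (edgeR) for the tested genes of 4 lists, 1 point per gene, with red for an unadjusted p under 0.05 and a black line at each median. The medians are -0.02, 0.13, 0.24 and -0.01 from top to bottom, and the IGF axis holds 6 of the 7 red points above 0.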

How the data were processed

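Per the study's methods and the submitters' processing notes, adapters were removed with Trim Galore, HISAT2 2.1.0 mapped the reads to mm10, and StringTie 1.3.3 gave counts and TPM. The counting annotation and strand setting are not given in the sources used here. The authors deposited whole-number counts without normalization for 23337 gene symbols, and TPM values for each library, whose file also held 1 line naming no gene with the column total, 100% of the gene sum, which was left out. No column of per-sample values went unused (0). The count table has no column from the authors' own tests.

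Counts were tested with edgeR 4.0.16 (TMM, filterByExpr at 10 counts and a total of 15, glmQLFit and glmQLFTest, genotype as the single term) in R 4.3.3 on all genes, with Benjamini-Hochberg adjustment at 0.05. The BCV was 0.557, and 18547 genes were tested. The SE is the log2 fold change over the root of F. TPM values were used for levels and, on log2(TPM + 1) and log2(TPM + 0.1), for limma 3.58.1. DESeq2 1.42.0, the study's tool, was an alternative. The script was tested on simulated counts with less spread than these data and larger changes than those of the tested members. That test checks the code alone. Two-sided exact permutation tests compared single ratios. A count of 0 was read as allowing 3 counts per library.

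Members and lists were chosen with earlier results of these data known. Named genes were all members, list genes with an unadjusted p under 0.05 or the extreme log2 fold change, and the 3 genes nearest the member with the smallest p. Older symbols were matched through RefSeq synonyms, *Hras* after the files were read. let-7 sequences came from RefSeq (GRCm38.p6), positions and 3′ UTRs from GENCODE M21 (GRCm38, the same assembly as mm10).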

Additional observations from a re-analysis of the deposited data

How the results depend on the processing

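Over 12 alternatives, 89 of 106 log2 fold changes of tested members kept their direction and their side of the threshold on the unadjusted p of edgeR, 4 lost and 2 gained the call and 11 reversed. The reversals were *Lin28a* without WT 2 (0.96), *Igf1* without *Sirt6* cKO 2 (-0.18), *Igf2bp3* without WT 2 (-0.02) or *Sirt6* cKO 2 (-0.32), and *Igf2bp2* with upper quartile scaling (-0.0512), library size alone (-0.066), a replicate block (-0.0708), limma on log2(TPM + 1) (-0.0547) or log2(TPM + 0.1) (-0.0766), and without WT 2 (-0.18) or *Sirt6* cKO 2 (-0.68). With 1 library left out, the log2 fold change ran from -4.37 to 0.96 for *Lin28a*, -0.18 to 0.67 for *Igf1*, -0.32 to 0.60 for *Igf2bp3* and -0.68 to 0.47 for *Igf2bp2*. The cause was not tested. The count of members called higher was 1 in the main analysis, 0 with limma at either pseudocount and 0 to 2 when 1 library was left out, and 0 were called lower in each setting.

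Over all genes, 977 were higher and 615 lower, 697 and 449 with the block. Leaving out 1 library gave 394 to 1152 higher and 332 to 828 lower, the lowest without *Sirt6* cKO 1. Upper quartile scaling gave 751 higher and 800 lower, library size alone 721 and 838, limma 908 and 874 at a pseudocount of 1 and 885 and 843 at 0.1, and DESeq2 1217 and 920. After adjustment edgeR called 1 gene and DESeq2 354.

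List counts moved by over 1.5 times in 29 of 96 cases. The IGF axis had 2 lower genes with upper quartile scaling or library size alone, and 3 higher with the replicate block. let-7 machinery had 0 higher with upper quartile scaling, and let-7 targets had 1 lower with limma at either pseudocount. Imprinted genes had 2 lower with DESeq2, upper quartile scaling, no filter or the block, and 3 with library size alone, the TPM filter or limma. With 1 library left out, the IGF axis had 2 to 6 higher and 0 to 1 lower genes, let-7 machinery 0 higher and 0 to 1 lower, let-7 targets 0 to 3 higher and imprinted genes 0 to 1 higher and 1 to 2 lower. List medians ranged over the alternatives from 0.0341 to 0.246 for the IGF axis, 0.0291 to 0.212 for let-7 targets, -0.13 to 0.0242 for imprinted genes and -0.108 to 0.107 for let-7 machinery.

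Deviations of same-numbered libraries correlated at -0.054 over genes. With 2 libraries per group this value cannot show whether the replicate numbers mark pairs or batches. In the fit with the replicate block *Igf2bp1* had a log2 fold change of 1.10 (unadjusted p = 0.0351) and 1 member was called. A fit without 1 library leaves a lone library in its group, which is assumed to vary like the others. With 2 libraries per group the depth is not the limit for *Igf1*, *Igf1r* and *Igf2bp3*, whereas *Lin28a*, *Lin28b* and *Hmga2* rest on fewer than 200 counts per library.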
